A study of Mus musculus with 6 samples.

Results

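The comparison described here sets B16 cells that went through cyclic hypoxia against B16 cells kept in chronic hypoxia, both collected before any final reoxygenation. B16 is a mouse melanoma line. The comparison rests on 2 of the 6 arrays of the series, chosen by their titles, with 1 array on each side, so every difference below is the ratio of 2 single arrays and has no error of its own and no test. Cyclic hypoxia was 3 periods of 1 h at less than 1% oxygen, interrupted by 30 min of reoxygenation, and chronic hypoxia was a single period of 3 h. The labels thus give both regimes the same hours of low oxygen, while the cyclic regime also held its oxygenated intervals and lasted longer by them. The remaining arrays are the same cyclic and chronic regimes with a final 1 h of reoxygenation, normoxia for 3 h with 1 h added, and normoxia for 3 h. The protocol, given for every sample, puts the cells in serum-free medium 2 h before hypoxia, and the labels do not say whether normoxia was also timed to the cyclic regime. For each array, 5 µg of total RNA was labelled.

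Cells sense oxygen mainly through the hypoxia-inducible factors (HIF). When oxygen is present, prolyl hydroxylases mark the HIF alpha subunit for destruction, and when oxygen falls the subunit accumulates, pairs with ARNT and switches on genes for glucose use, mitophagy and survival. Reoxygenation restores the hydroxylases and brings a burst of reactive oxygen species, which the transcription factor NRF2 answers with antioxidant enzymes. In tumours, cycles of low and normal oxygen arise where blood flow in badly formed vessels comes and goes.

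The signals are array intensities on a linear scale. Values under 2.1 units were set to 2.1 before taking log2, and the main set was limited to genes whose signal averaged 100 units or more across the 6 arrays. It holds 3573 genes, each represented by its brightest probe set. In bulk RNA, fewer cells of a kind and less RNA per cell cannot be told apart. Signals of the melanocyte genes were high in both arrays. Dct (an enzyme of melanin synthesis) had 5731 units after cyclic and 6414 after chronic hypoxia, and Pmel (the melanosome matrix protein) had 3816 and 4078. Of 32 measured markers of other skin and tumour cell types (fibroblast, immune, endothelial, keratinocyte), 0 were in the main set. Of all 12393 genes, 3573 were. Their summed signals after cyclic and chronic hypoxia were 25.9 and 27.3 for fibroblasts, 84.9 and 99.9 for immune cells, 29.3 and 35 for endothelium, and 19.8 and 25.2 for keratinocytes, with 15 markers under the floor after cyclic and 11 after chronic hypoxia.

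Most transcripts had nearly the same signal in both regimes, and those at least 2-fold apart were mostly lower after cyclic hypoxia. The lower ones included heat-inducible Hspa1b, immediate-early genes (Fos, Jun, Ccn1), HIF targets (Mxi1, Hilpda, Ero1a, Bnip3, Sap30, Hk2) and the stress genes Ddit3 and Chac1. The few higher ones included the linker histone H1f2 and the thioredoxin reductase Txnrd1. In numbers, 36 of 3573 genes (1.01%) were at least 2-fold lower after cyclic than after chronic hypoxia, and 5 (0.14%) were at least 2-fold higher, 1.15% in either direction. The median log2 ratio was 0.00, the SD across genes was 0.33, and 89.8% of the genes lay within 0.5 of 0. As a measure of how far 2 arrays differ without hypoxia, normoxia with 1 h added against normoxia gave 0 genes higher (0%) and 1 lower (0.028%), with an SD of 0.21. The signal limit is itself tied to the difference for some genes: without the 2 chronic arrays 11 of the 36 lower genes would average under 100 units, and without the 2 cyclic arrays 1 of the 5 higher genes would. With the limit set on the 2 normoxia arrays alone, a choice made after seeing the data, 28 genes were lower and 6 higher, and 25 of the 36 and 4 of the 5 were still measured and past 2-fold. At 1.5-fold the counts for cyclic against chronic hypoxia were 157 lower (4.39%) and 77 higher (2.16%), so the excess of lower genes was proportionally smaller at that cut.

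**Figure D1:**
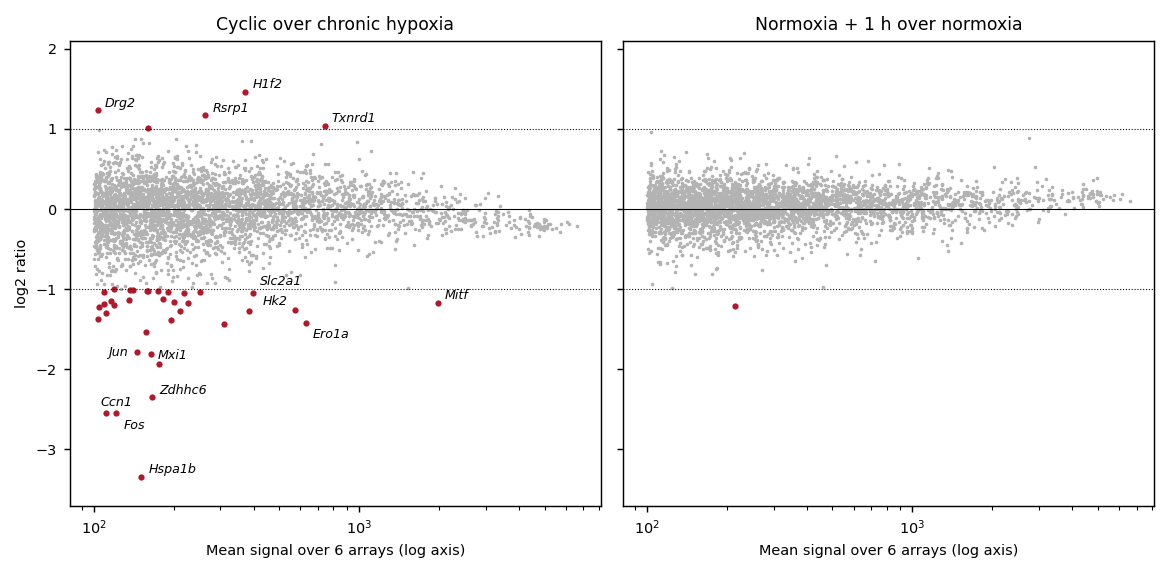
Each point is 1 gene of the main set, with its mean signal over 6 arrays (log axis) and its log2 ratio for cyclic over chronic hypoxia (left) and for normoxia with 1 h added over normoxia (right); red points are 2-fold or more apart. On the left 36 genes lie at or below -1 and 5 at or above 1, and on the right 1 and 0 do.

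Signal level set how much a 2-fold difference could show. Among genes with a mean signal of 10 to 25, cyclic hypoxia was 2-fold lower at 11.3% and higher at 3.95%, but the normoxia arrays also differed at 6.95% and 3.6%. From 50 to 100 units, cyclic hypoxia was lower at 1.54% and higher at 0.45%, against 0.386% and 0.129% between the normoxia arrays. From 100 to 200 units the shares were 1.78% and 0.143%, against 0% and 0% between the normoxia arrays, and from 500 units on they were 0.333% and 0.111%, again against 0% and 0%. Lower genes outnumbered higher ones at each of these levels, and the separation from the normoxia pair was clearest from 100 units on.

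**Figure D2:**
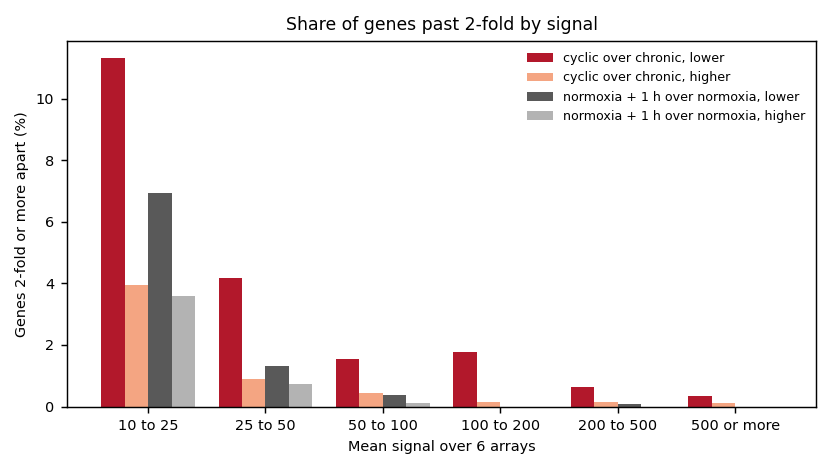
Bars give the percentage of genes 2-fold or more lower or higher, in bins of mean signal, for cyclic over chronic hypoxia (red, orange) and for normoxia with 1 h added over normoxia (dark and light grey). In dim bins the grey bars are also high (6.95% lower at 10 to 25 units), and from 100 units on they are at or near 0.

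The promoters below are shown because they belong to genes that results turn on: Bnip3, Hk2 and Slc2a1 for the HIF targets, Fos for the immediate-early genes and Txnrd1 for the genes higher after cyclic hypoxia. Each runs 5′ to 3′ over 300 bases, from 250 before to 50 after an annotated start, and comes from RefSeq for build GRCm38.p6. Capitals mark ACGTG, the core that HIF binds, in the first 3 promoters. In Fos they mark TGACG (the core of a cAMP response element), and in Txnrd1 TGACNNNGC (the antioxidant response element that NRF2 binds). The Txnrd1 promoter shown is the 1 of its 3 annotated promoters that holds the motif, and the others hold none. For the immediate-early genes, TGACG is also in the promoter of Ccn1 and is not in that of Jun. All promoters shown hold the marked motif. Those of H1f2 and Hspa1b, the genes with the highest and lowest ratios, hold none of the motifs searched and are not shown. Both strands were searched, and CACGTG holds the HIF core on both strands.
Bnip3, chr7:138909457-138909756, strand -: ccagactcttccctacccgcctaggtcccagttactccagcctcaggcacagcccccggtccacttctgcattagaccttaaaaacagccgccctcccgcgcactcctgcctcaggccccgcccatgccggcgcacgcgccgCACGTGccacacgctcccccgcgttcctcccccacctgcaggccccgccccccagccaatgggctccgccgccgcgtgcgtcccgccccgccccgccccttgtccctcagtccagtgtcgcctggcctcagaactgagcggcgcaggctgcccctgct
Hk2, chr6:82774405-82774704, strand -: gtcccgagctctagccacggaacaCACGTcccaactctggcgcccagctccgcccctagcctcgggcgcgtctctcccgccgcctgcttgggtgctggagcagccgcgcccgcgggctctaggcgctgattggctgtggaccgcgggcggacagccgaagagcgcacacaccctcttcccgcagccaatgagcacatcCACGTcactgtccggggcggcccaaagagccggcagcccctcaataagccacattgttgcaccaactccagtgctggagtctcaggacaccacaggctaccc
Slc2a1, chr4:119108495-119108794, strand +: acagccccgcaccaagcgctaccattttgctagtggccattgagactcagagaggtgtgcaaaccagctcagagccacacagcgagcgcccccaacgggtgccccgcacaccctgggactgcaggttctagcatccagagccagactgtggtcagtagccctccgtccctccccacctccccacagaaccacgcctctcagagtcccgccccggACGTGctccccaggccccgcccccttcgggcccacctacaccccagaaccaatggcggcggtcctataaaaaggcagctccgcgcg
Fos, chr12:85473640-85473939, strand +: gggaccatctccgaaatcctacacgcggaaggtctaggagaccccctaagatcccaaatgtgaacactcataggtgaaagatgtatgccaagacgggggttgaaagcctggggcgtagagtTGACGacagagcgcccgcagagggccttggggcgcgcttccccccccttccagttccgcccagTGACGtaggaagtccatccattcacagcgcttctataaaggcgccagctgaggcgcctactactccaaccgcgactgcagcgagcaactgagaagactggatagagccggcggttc
Txnrd1, chr10:82858956-82859255, strand +: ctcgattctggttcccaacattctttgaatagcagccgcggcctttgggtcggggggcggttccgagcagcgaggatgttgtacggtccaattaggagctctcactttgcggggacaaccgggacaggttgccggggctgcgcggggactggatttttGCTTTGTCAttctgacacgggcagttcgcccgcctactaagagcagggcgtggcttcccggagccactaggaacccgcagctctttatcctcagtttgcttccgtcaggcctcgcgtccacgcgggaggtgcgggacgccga

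Promoters were found for 27 of the 36 lower genes (35 promoters, since some genes have several starts) and for 2976 of the 3573 genes (3782 promoters). ACGTG on either strand was in 15 promoters of lower genes (42.9%), and in 28.6% of all 3782. For the 9 lower genes that are also on the lists of HIF targets or glucose genes it was in 9 of 11 promoters, but those genes were listed as HIF targets to begin with. With GCGTG counted as well, the shares were 62.9% of the lower genes' promoters and 67.3% of all. TGANTCA, which AP-1 binds, was in 8.57% against 4.57%, TGACG in 28.6% against 35.4%, TGACNNNGC in 20% against 14%, and the CArG box, the site of serum response factor, in 0 against 1.43%. Among the 8 promoters of the 5 higher genes, 3 held TGACNNNGC. These matches describe the letters of the windows only.

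Immediate-early genes were among those with the lowest ratios. They are transcribed within minutes of a stimulus without new protein synthesis, and many encode transcription factors. Fos, a subunit of AP-1, had 39.6 units after cyclic hypoxia, against 230 after chronic hypoxia and 55.6 in normoxia, and the log2 ratio of cyclic over chronic was -2.54. After the last hour it had 84.5 units in the cyclic regime, against 264 in the chronic regime and 55.7 in normoxia with 1 h added. Only the 2 chronic arrays were above 200 units for Fos, and the cyclic array without final reoxygenation was the lowest of the 6.

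Ccn1, a matricellular protein induced by growth factors, had the same profile, with 35.2 units after cyclic hypoxia, against 206 after chronic hypoxia and 41.0 in normoxia (log2 ratio -2.55). Its second probe set gave -3.13. Jun, the partner of Fos in AP-1, had 103 units after cyclic hypoxia, against 355 after chronic hypoxia and 74.6 in normoxia (-1.78, and -1.43 at its second probe set). For Jun the difference was no longer there after the last hour, at 132 units in the cyclic and 130 in the chronic regime. Egr1, a zinc finger factor, had 43.7 units after cyclic hypoxia, against 99 after chronic hypoxia and 52.1 in normoxia, a log2 ratio of -1.18. Both of the compared signals are under 100 units, and Egr1 is in the main set through its 333 units after cyclic hypoxia with reoxygenation.

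Of 34 listed immediate-early genes on the array, 11 were in the main set. Among these 11, 4 were at least 2-fold lower (background 1.01%), 0 were higher, and the median was -0.49 against 0.00 for all genes. Fos, Ccn1 and Jun reach the signal limit through the chronic arrays and Egr1 through a cyclic one, so this count cannot be read against the background. With the limit set on the normoxia arrays 5 members are measured, of which 0 are past 2-fold, with a median of -0.46. The 7 others of the 11 lay between -0.88 for Nr4a1, an orphan nuclear receptor, and 0.11 for Ier3. Feedback inhibitors of ERK signalling had 0 of 7 past 2-fold either way (background 1.15%) and a median of 0.07. Among them the phosphatase Dusp6 had 677 units after cyclic and 490 after chronic hypoxia (0.47), and Phlda1 had 690 and 969 (-0.49).

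The largest difference in the main set was at Hspa1b, the stress-inducible form of the HSP70 chaperone. It had 52.5 units after cyclic hypoxia, against 532 after chronic hypoxia and 108 in normoxia, which is 10.1-fold lower (log2 ratio -3.34). Its 2 other probe sets gave -2.63 and -2.97. After the last hour the gene had 52.0 units in the cyclic regime, against 35.8 in the chronic regime and 126 in normoxia with 1 h added. The chronic array without reoxygenation was thus the only one of the 6 above 200 units. Hspa1b shares nearly all its sequence with Hspa1a, so the array may not tell the 2 genes apart.

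Of 14 heat shock genes in the main set, Hspa1b was the only one past 2-fold (background 1.15% in either direction), 11 were below 0 and the median was -0.27. Hspa1b reaches the signal limit only through the chronic arrays, with a mean of 84.7 units without them. Dnajb1, the HSP40 co-chaperone that is induced together with HSP70, had 389 units after cyclic and 645 after chronic hypoxia, against 330 in normoxia (-0.73). Hspb1, the small heat shock protein HSP27, was too dim for the main set but had 46.2 units after cyclic and 182 after chronic hypoxia, against 72.1 in normoxia (-1.98), and was named after its values were seen. Hspa8, the constitutive form of HSP70, differed by -0.31 and Hsp90aa1, an HSP90, by 0.03. Hsph1 (-0.65) and Chordc1 (-0.89) were also lower after cyclic hypoxia, but both had about as much signal after chronic hypoxia (446 and 185 units) as in normoxia (480 and 206).

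**Figure D3:**
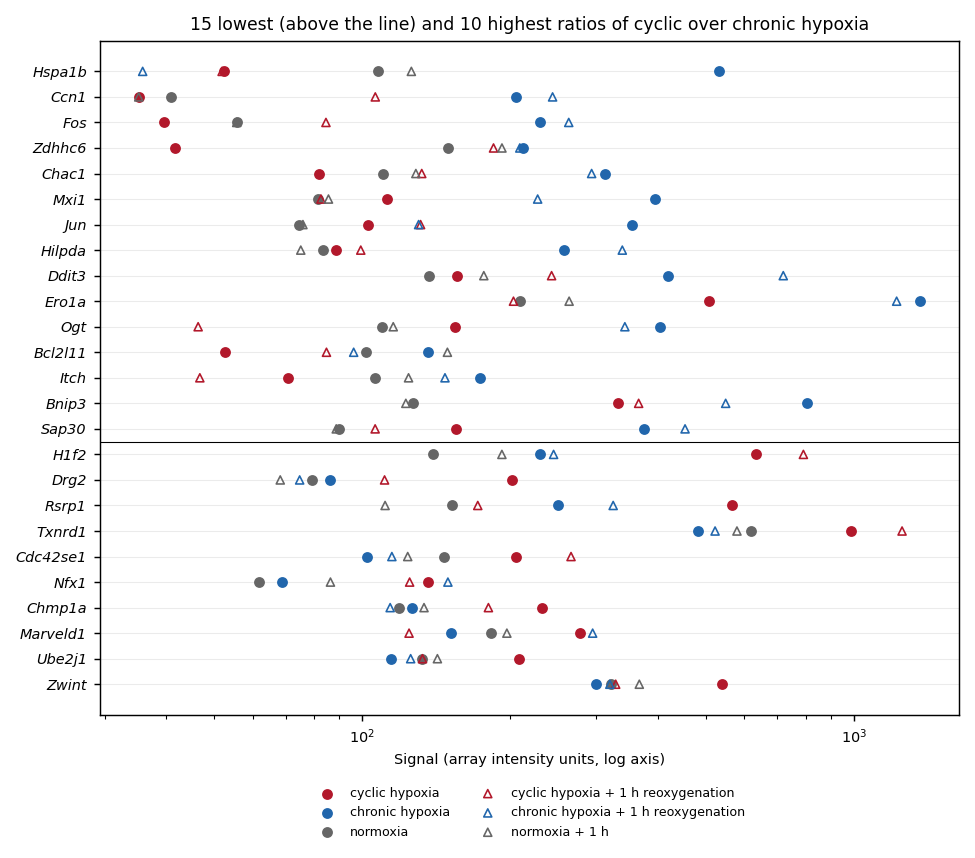
Signals (log axis) in all 6 arrays for the 15 genes with the lowest and the 10 with the highest log2 ratio of cyclic over chronic hypoxia; filled circles are arrays at the end of exposure, open triangles those 1 h later, red for cyclic hypoxia, blue for chronic hypoxia and grey for normoxia. For Fos and Ccn1 both blue symbols lie right of all others, for Hspa1b only the blue circle does, and for H1f2 and Txnrd1 both red symbols lie furthest right.

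HIF targets were the largest listed group among the lower genes. Mxi1, a MYC antagonist, had 113 units after cyclic hypoxia, against 394 after chronic hypoxia and 81.6 in normoxia (log2 ratio -1.81). Hilpda, which holds back the breakdown of lipid droplets, had 88.7 units after cyclic hypoxia, against 258 after chronic hypoxia and 83.5 in normoxia (-1.54). For both genes the cyclic array lay close to normoxia, and the log2 differences from normoxia, which share the normoxia array, were 0.47 and 0.09 after cyclic hypoxia and 2.27 and 1.63 after chronic hypoxia.

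Other HIF targets were above normoxia in both regimes and further in chronic hypoxia. Ero1a, the oxidase that supports disulfide formation in the endoplasmic reticulum, had 509 units after cyclic hypoxia, against 1367 after chronic hypoxia and 210 in normoxia (log2 ratio -1.42, with -1.03 and -0.75 at its other probe sets). Bnip3, a mitophagy receptor, had 332 units after cyclic hypoxia, against 803 after chronic hypoxia and 127 in normoxia (-1.27). Sap30, a subunit of the SIN3 corepressor, had 155 units after cyclic hypoxia, against 375 after chronic hypoxia and 89.8 in normoxia (-1.27). The cyclic array lay between normoxia and chronic hypoxia for each of these 3 genes. Jmjd6, an oxygen-dependent JmjC enzyme (-1.02, and -1.19 at another probe set), and Plod2, a lysyl hydroxylase of collagen (-1.02), completed the HIF targets past 2-fold.

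Further HIF targets did not separate the regimes. Kdm3a, a histone H3K9 demethylase, had 767 units after cyclic hypoxia, against 729 after chronic hypoxia and 241 in normoxia, a log2 ratio of 0.07. Ndrg1, a stress-responsive growth regulator, had 290 units after cyclic hypoxia, against 282 after chronic hypoxia and 146 in normoxia (0.04). Both regimes thus had the same signal of these 2 genes to within 0.1 on the log2 scale, while the genes of the preceding paragraphs differed by more than 1.

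In all, 20 of the 43 listed HIF targets on the array were in the main set. Of these, 7 were at least 2-fold lower (background 1.01%), 12 at least 1.5-fold lower (background 4.39%) and 0 at least 1.5-fold higher (background 2.16%), with a median of -0.88. Mxi1 and Hilpda reach the signal limit only through the chronic arrays, with means of 90.6 and 86.7 units without them. The 2-fold and 1.5-fold lower counts therefore cannot be read against the background. Mxi1, Hilpda, Sap30 and Jmjd6 are not measured with the limit on the normoxia arrays, where 3 of 15 were 2-fold lower, with a median of -0.75. The share over all genes with that limit is not given here. Between 1.5-fold and 2-fold lower were Ddit4, an inhibitor of mTORC1 (-0.97), Fam162a (-0.91), the cyclin Ccng2 (-0.89), the HIF prolyl hydroxylase Egln1 (-0.87) and the transcriptional repressor Bhlhe40 (-0.75). The transcript of the oxygen-regulated subunit itself, Hif1a, had 449 units after cyclic and 524 after chronic hypoxia (-0.22), although HIF is governed mainly by protein stability. Of the other JmjC enzymes in the main set, Kdm2b differed by -0.60.

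**Figure D4:**
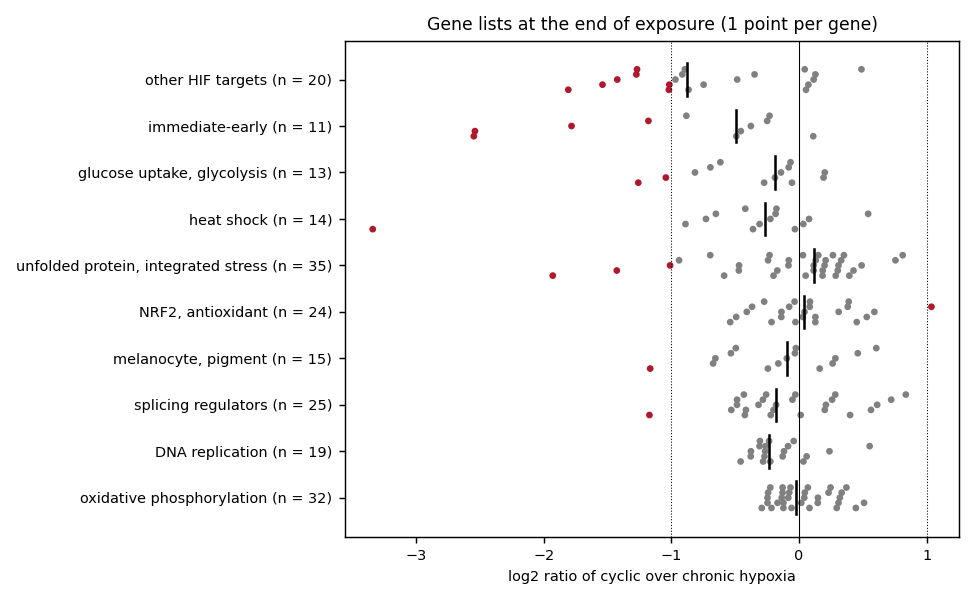
Each point is 1 gene of the main set on the list named at the left, placed by its log2 ratio of cyclic over chronic hypoxia; black bars are list medians and red points are 2-fold or more apart. Other HIF targets have the lowest median of the lists shown (-0.88), and all 32 genes of oxidative phosphorylation lie between -0.29 and 0.51.

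Within glucose metabolism, 19 listed genes were on the array and 13 in the main set. Of these 13, 2 were 2-fold lower after cyclic hypoxia (background 1.01%) and 0 higher (background 0.14%). Hk2, the hexokinase that traps glucose in the cell, had 534 units after cyclic hypoxia, against 1279 after chronic hypoxia and 165 in normoxia (log2 ratio -1.26). Slc2a1, the glucose transporter GLUT1, had 385 units after cyclic hypoxia, against 793 after chronic hypoxia and 152 in normoxia (-1.04, and -1.22 and -1.09 at its other probe sets). The liver-type phosphofructokinase Pfkl (-0.82), the hexokinase Hk1 (-0.69) and the platelet-type phosphofructokinase Pfkp (-0.62) followed.

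The 2 regimes were closer for the main-set enzymes named next, from aldolase to lactate dehydrogenase, a division of the list made after its values were seen. A further main-set member of the list is not named here and is not placed on either side. The log2 ratios were 0.19 for Aldoa and -0.08 for Aldoc (aldolases), -0.27 for Tpi1 (triose phosphate isomerase), -0.14 for Pgk1 (phosphoglycerate kinase), -0.19 for Pgam1 (phosphoglycerate mutase), 0.20 for Pkm (pyruvate kinase) and -0.07 for Ldha (lactate dehydrogenase). Ldha had 2657 units after cyclic hypoxia, against 2783 after chronic hypoxia and 1716 in normoxia. The 6 listed genes below the signal limit did not all follow that division. Pfkm, another phosphofructokinase, differed by -0.03 and Pfkfb3, which makes its activator, by 0.27, while the enolase Eno2 differed by -1.22 and the lactate exporter Slc16a3 by -2.08, all at low signals (for Slc16a3, 11.7 units after cyclic and 49.4 after chronic hypoxia). Pdk1, which keeps pyruvate out of mitochondria, differed by -0.87 and the glucose transporter Slc2a3 by -0.64.

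Genes of oxidative phosphorylation, the pathway that consumes the oxygen, differed little between the regimes. Of 32 in the main set, 0 were past 1.5-fold (background 4.39% lower and 2.16% higher). Of the 32, 16 were above and 16 below 0, and the median was -0.02. The highest was Sdhc, a membrane anchor of succinate dehydrogenase, with 378 units after cyclic and 266 after chronic hypoxia (0.51). The lowest was Cox6c, a subunit of cytochrome c oxidase, with 2326 and 2848 (-0.29).

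The stress responses to misfolded protein and amino acid shortage held genes on both sides. Of 35 in the main set, 3 were 2-fold lower after cyclic hypoxia (background 1.01%) and 0 higher (background 0.14%). Ddit3, which encodes the transcription factor CHOP, had 156 units after cyclic hypoxia, against 420 after chronic hypoxia and 137 in normoxia (log2 ratio -1.43). Chac1, which degrades glutathione and is induced by ATF4 and CHOP, had 81.8 units after cyclic hypoxia, against 312 after chronic hypoxia and 110 in normoxia (-1.93). Nupr1, a small chromatin-associated stress protein, had 90.9 units after cyclic hypoxia, against 183 after chronic hypoxia and 77.5 in normoxia (-1.01, and -1.15 at its other probe set). In each of the 3 genes the cyclic array was within 0.5 (log2) of normoxia. The bZIP factors Cebpg (-0.94), Cebpb (-0.70) and Atf4 (-0.59) were between 1.5-fold and 2-fold lower. Other genes known as targets of ATF4 or CHOP were short of 1.5-fold on either side, with -0.47 for Trib3, 0.31 for Asns, 0.33 for Slc7a5 and 0.49 for Shmt2.

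Some genes of the endoplasmic reticulum had higher signals after cyclic hypoxia, short of 2-fold, while Ero1a (-1.42) and Emc2 (-1.05) had lower ones. Xbp1, the transcription factor that drives the folding response after IRE1 splices its mRNA, had 888 units after cyclic hypoxia, against 506 after chronic hypoxia and 527 in normoxia (0.81), and its other probe sets gave 1.36, 0.98 and 0.95. Eif2ak3, which encodes the stress sensor kinase PERK, had 232 units after cyclic hypoxia, against 137 after chronic hypoxia and 100.1 in normoxia (0.76). Ube2j1, a ubiquitin-conjugating enzyme of endoplasmic reticulum-associated degradation that is not on the list, had 209, against 115 and 133 (0.87). Hspa5, the chaperone BiP, differed by 0.20 and Herpud1 by 0.11. Over the combined list 21 of 35 were above 0, and the median was 0.11. Past 1.5-fold, 2 of the 35 were higher (background 2.16%) and 6 lower (background 4.39%).

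H1f2, a linker histone, was the gene furthest above chronic hypoxia. It had 634 units after cyclic hypoxia, against 230 after chronic hypoxia and 140 in normoxia (log2 ratio 1.46, and 0.92 at a second probe set of 147 units mean signal). After the last hour it had 791 units in the cyclic regime, against 245 in the chronic regime and 193 in normoxia with 1 h added. Both cyclic arrays were above all 4 others. The other histone genes of the list lay between 0.03 (H2az1) and 0.29 (H2ax and Macroh2a1).

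Drg2, a GTP-binding protein, had 202 units after cyclic hypoxia, against 86.1 after chronic hypoxia and 79.2 in normoxia (1.23). Rsrp1, an arginine- and serine-rich protein, had 566 units after cyclic hypoxia, against 251 after chronic hypoxia and 153 in normoxia (1.17, and 1.5 at another probe set). Cdc42se1, a small effector of CDC42, had 206 units after cyclic hypoxia, against 102 after chronic hypoxia and 147 in normoxia (1.01), so here chronic hypoxia was below normoxia as well. Its other probe set, of 65.8 units mean signal, gave 0.17. The splicing factors of the SR family with the highest ratios were Srsf5 (1320 units after cyclic hypoxia, 739 after chronic hypoxia, 0.84), Srsf2 (1585 and 961, 0.72) and Srsf6 (972 and 658, 0.56). Over all 25 splicing regulators in the main set the median was -0.18, with 1 member 2-fold lower (background 1.01%) and 0 higher (background 0.14%).

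NRF2 targets and antioxidant genes were spread on both sides of 0. Txnrd1, the cytosolic thioredoxin reductase, had 989 units after cyclic hypoxia, against 482 after chronic hypoxia and 619 in normoxia (log2 ratio 1.04). Srxn1, which repairs oxidised peroxiredoxins, had 344 units after cyclic hypoxia, against 228 after chronic hypoxia and 173 in normoxia (0.59). Gclm, a subunit of the enzyme that starts glutathione synthesis, had 287, against 199 and 111 (0.53), and the autophagy adaptor Sqstm1 had 2222, against 1624 and 1210 (0.45). Hmox1, heme oxygenase, did not separate the regimes, with 191 units after cyclic hypoxia, against 187 after chronic hypoxia and 71.5 in normoxia (0.03). Of 24 NRF2 and antioxidant genes in the main set, 1 was 2-fold higher (background 0.14%), 0 lower (background 1.01%), and the median was 0.04. Txnip, the inhibitor of thioredoxin, lay on the other side at -0.49.

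In the melanocyte lineage the master regulator Mitf stood apart from the pigment genes. Mitf had 1256 units after cyclic hypoxia, against 2820 after chronic hypoxia and 2366 in normoxia (log2 ratio -1.17, and -1.80 at a second, dimmer probe set). The cyclic array was therefore below normoxia while the chronic array was slightly above it. Pax3 (-0.67) and Sox10 (-0.53), which activate Mitf, and the melanocortin receptor Mc1r (-0.66) had the next lowest ratios of the 15 listed genes. Tyrosinase (Tyr) differed by 0.26, Dct by -0.16, Pmel by -0.10 and Tyrp1 by -0.24, while Gpr143 (0.60) and the transporter Slc45a2 (0.46) were the highest. The list median was -0.10.

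In other lower genes the cyclic array was below normoxia and the chronic array was not above it, or only slightly. Tardbp, the RNA-binding protein TDP-43, had 114 units after cyclic hypoxia, against 257 after chronic hypoxia and 360 in normoxia (log2 ratio -1.17, and -0.48 at its other bright probe set). Rps6ka3, the kinase RSK2, had 151 units after cyclic hypoxia, against 309 after chronic hypoxia and 309 in normoxia (-1.03), but a second probe set gave 0.24. Emc2, of the membrane protein insertion complex, had 146 units after cyclic hypoxia, against 303 after chronic hypoxia and 266 in normoxia (-1.05). Zranb2, a splicing-associated zinc finger protein, had 73.6, against 163 and 164 (-1.14). Probe sets did not always give the same answer in this group. Zdhhc6, a palmitoyltransferase, had 41.7 units after cyclic hypoxia, against 212 after chronic hypoxia and 150 in normoxia at its brightest probe set (-2.35), while its second probe set, of about the same signal as the limit of the main set, gave 0.43.

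Signalling and turnover genes filled the rest of the 36. Ogt, which adds O-GlcNAc to proteins, had 155 units after cyclic hypoxia, against 403 after chronic hypoxia and 110 in normoxia (log2 ratio -1.38, and -0.67 at a dimmer probe set). Bcl2l11, the pro-apoptotic protein BIM, had 52.8 units after cyclic hypoxia, against 136 after chronic hypoxia and 102 in normoxia (-1.37, and -0.56 at a second probe set). The ubiquitin ligase Itch had 70.8 units after cyclic hypoxia, against 174 and 106 (-1.29). The zinc and iron transporter Slc39a14 (-1.22), the chloride-proton exchanger Clcn3 (-1.16), the natriuretic peptide Nppb (-1.13) and Deptor, an inhibitor of mTOR (-1.01, but -0.39 at a second probe set), were also lower. The remaining 6 were Klhl42 (-1.20), the pseudouridine synthase Trub2 (-1.13, but -0.43 and 0.35 at its other probe sets), Ccdc58 (-1.04), Cdc42ep5 (-1.03), the GTPase Rab17 (-1.03) and Pura, a nucleic acid-binding protein, which was just past the 2-fold limit. BC003965 (-0.99) and Snrnp27 (-0.98) were just outside, and on the other side Cdc42se1 (1.01) was just inside and Nfx1 (0.99) just outside.

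Where a gene of the 36 or 5 had other probe sets with a mean signal of at least 50, these mostly had the same sign but often a smaller difference. For the lower genes this held for 20 of 23 probe sets (of 18 genes), and 10 of the 23 were themselves 2-fold lower. For the higher genes it held for 3 of 3, of which 1 was 2-fold higher. Averaged over these probe sets, an alternative chosen after seeing the data, 27 of the 36 and 4 of the 5 stayed past 2-fold. Those that did not were Zdhhc6 (-0.96), Rps6ka3 (-0.40), Trub2 (-0.40), Tardbp (-0.83), Bcl2l11 (-0.96), Deptor (-0.70), Clcn3, Plod2 and Pura among the lower genes, and Cdc42se1 (0.59) among the higher.

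Several lists had 0 members past 2-fold, against a background of 1.15% in either direction. At 1.5-fold the background was 4.39% lower and 2.16% higher. In lists this small a count of 0 is near those shares and is not a result about the list. DNA replication genes had 0 of 19 past 1.5-fold, with 15 below 0 and a median of -0.23, and the licensing helicase genes Mcm2 to Mcm7 lay between -0.38 and -0.09. Mitosis genes had 0 of 15 past 1.5-fold (median -0.11), invasion and protease genes 0 of 16 (median 0.09) and interferon and antigen presentation genes 0 of 5 (median 0.08). Sterol synthesis had 1 of 19 at least 1.5-fold lower, Pmvk (-0.80), against a background of 4.39%, and a median of -0.21. Housekeeping genes had a median of -0.16 over 10, from -0.36 for Tfrc to 0.62 for Gusb.

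The same comparison 1 h later, cyclic against chronic hypoxia after reoxygenation, used 2 arrays that do not enter the ratios at the end of exposure. They do enter the mean signal that set the main set and each gene's probe set. Without the 2 chronic arrays, the later one included, 11 of the 36 lower genes would miss the limit. The same holds for 1 of the 5 higher genes and the cyclic arrays. The agreement below is therefore not independent of how the genes were chosen. At the later collection, 334 genes (9.35%) were at least 2-fold lower and 18 (0.504%) higher in the cyclic regime, 9.85% in either direction, with an SD of 0.61. The cyclic array with reoxygenation had the lowest correlations with the other arrays over the main set, 0.906 to 0.942 across genes, where all other pairs gave 0.949 to 0.986, and its part in the counts was not tested. Of the 36 genes lower at the end of exposure, 30 were also below 0 later (45.5% of all genes were) and 20 were at least 2-fold lower, which is 55.6% of the 36 and 5.99% of the 334. Of the 5 higher genes, 4 were above 0 later (54.5% of all genes were) and 3 at least 2-fold higher, 60.0% of the 5 and 16.7% of the 18.

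The genes that kept a 2-fold difference included Fos (-1.64 later), Ccn1 (-1.20), Mxi1 (-1.46), Hilpda (-1.77), Ddit3 (-1.57), Chac1 (-1.15), Sap30 (-2.09), Hk2 (-1.13) and Mitf (-1.81), and on the higher side H1f2 (1.69), Txnrd1 (1.26) and Cdc42se1 (1.21). Some differences were wider later. Ero1a had 203 units in the cyclic regime, against 1223 in the chronic regime and 264 in normoxia with 1 h added (-2.59), and Ogt had 46.5, against 343 and 116 (-2.88). Others had closed. Jun differed by 0.01 later, Nppb by 0.05, Nupr1 by 0.13 and Zdhhc6 by -0.18. Kdm3a, which was equal in both regimes at the end of exposure, had 363 units in the cyclic regime, against 883 in the chronic regime and 273 in normoxia with 1 h added (-1.28).

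**Figure D5:**
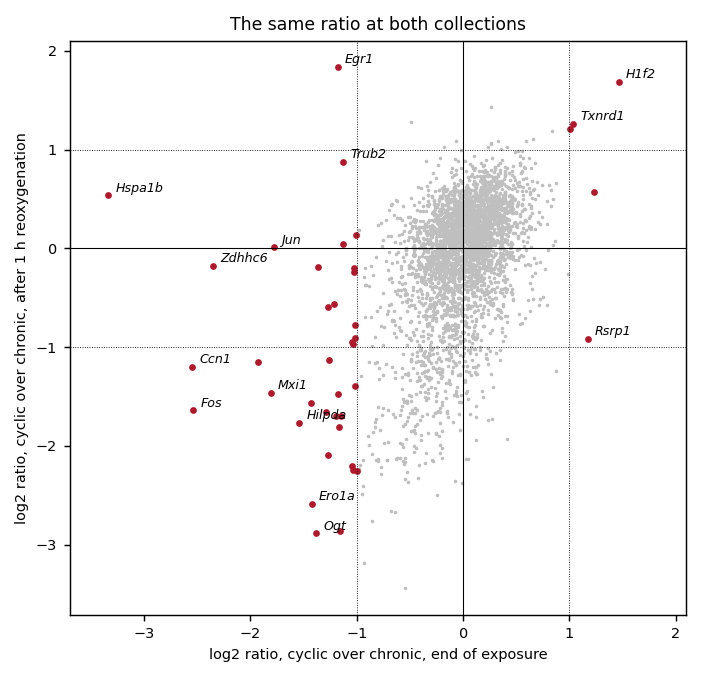
Each point is 1 gene of the main set, with its log2 ratio of cyclic over chronic hypoxia at the end of exposure (x axis) and after 1 h of reoxygenation (y axis); red points are 2-fold or more apart at the end of exposure. Of the 36 red points on the left, 30 lie below 0 on the y axis, and Egr1 is the only gene past 2-fold in opposite directions.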

How the data were processed

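Gene expression was measured once per group on Affymetrix arrays, 6 in all. The deposited values are intensity signals on a linear scale for 22690 probe sets, made with GCOS per the submitters' processing notes, with its version, algorithm and scaling target not given in the sources used here. The trimmed mean (2% left out at each end) was 100.1 in every array, so the authors' scaling was kept. Array signals carry no counts, so the number of arrays limits precision.

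Signals under 2.1 were set to 2.1, log2 ratios were taken, and no test was made, since each group has 1 array. Control probe sets (64) were left out. Of the rest, 20393 probe sets named 1 gene, 691 several and 1606 none, and current symbols were found for 20364 by Entrez identifier in RefSeq GRCm38.p6. A gene's brightest probe set stood for it, and those averaging 100 units or more across the arrays were used (3573 of 12393). "2-fold" means a log2 ratio of 1 or more in size.

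The genes named were the 15 highest and 15 lowest ratios, the members of the 36 gene lists past 2-fold, or the 2 brightest members where fewer passed, and, chosen after their values were seen, the other genes that illustrate a list or complete the 36 lower genes. The members, lists and rules were chosen with earlier results of these data known. Counting was tested on simulated data. Python 3.11.15, numpy 2.4.6, pandas 2.3.3 and matplotlib 3.10.9 were used.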

Additional observations from a re-analysis of the deposited data

Results flagged for a closer look

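These 5 named genes had a ratio of cyclic over chronic hypoxia that pointed one way at the end of exposure and the other way 1 h later, by more than the SD between the normoxia arrays (0.21) on both sides and by 2-fold on at least one. With 1 array in each group these differences between the collections were not tested. Egr1 differed by -1.18 at the end of exposure and by 1.84 later, with 333 units after cyclic hypoxia with reoxygenation, against 93.1 after chronic hypoxia with reoxygenation. Hspa1b differed by -3.34 and 0.54, Trub2 by -1.13 and 0.87 (with 0.35 and 1.22 at a dimmer probe set), Rsrp1 by 1.17 and -0.91, and Marveld1 by 0.87 and -1.24. A dimmer probe set of Marveld1, of 35.4 units mean signal, gave -0.46 and -0.39 and thus no reversal. Only Egr1 was past 2-fold both ways among the 3573 genes.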

How the results depend on the processing

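No paired analysis was possible because each group has 1 array, and no replicate could be left out. The counts of 5 higher and 36 lower genes stayed within 1.5 times under quantile normalization (5 and 34), median centring (6 and 29), a floor of 20 (5 and 36) and the mean of a gene's probe sets of 100 units or more (6 and 35). They depended on the signal limit: 12 and 60 at a mean of 50 or more, 3 and 11 at 200 or more, and 638 and 1042 with no limit, where the normoxia arrays differed at 521 and 988. With the limit set on the brighter of the 2 arrays they were 10 and 48, and Egr1 was no longer measured. At 1.5-fold they were 77 and 157, and at 3-fold 0 and 7.

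Another 3 alternatives were chosen after seeing the data. With the limit on the normoxia arrays the counts were 6 and 28. With the mean of a main-set gene's probe sets of 50 units or more they were 7 and 27, and with the mean of all its probe sets, dim ones included, 13 and 37, where the normoxia arrays differed at 2 and 13 and 25 of the 36 and 3 of the 5 genes stayed past 2-fold. H1f2 was 0.79 in that last setting.

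Lower genes outnumbered higher ones under each of the 13 alternatives, and their share of the calls was 87.8% as reported, against 62.0% with no signal limit, 67.1% at 1.5-fold, 74% with all probe sets and 78.6% at 200 or more. Single genes were followed for the 36 lower genes and the 15 with the highest ratios, and none of these changed sign. The other genes named above were not followed through the alternatives. Of 515 alternative values of these genes 40 moved by more than 0.21, all with a mean over probe sets. Settings that changed only the floor or the signal limit left a gene's ratio at its brightest probe set as it was, so those values could not move. With all probe sets averaged, 20 values moved and 31 did not. Of 312 list medians 6 moved and 2 changed sign: circadian clock genes (-0.26) had 0.053 with all probe sets averaged, and the MYC network (-0.40) 0.065 with the limit on the normoxia arrays, where 3 members are left. Apart from lost genes and dim probe sets, which follow from the settings, the cause was not tested.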

Other observations

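Between 50 and 100 units of mean signal, 24 of 1554 genes were at least 2-fold lower after cyclic than after chronic hypoxia (1.54%) and 7 higher (0.45%), against 6 lower (0.386%) and 2 higher (0.129%) between the normoxia arrays. These genes were named after their values were seen. Ak4, a mitochondrial adenylate kinase and HIF target, had 55.7 units after cyclic hypoxia, against 259 after chronic hypoxia and 13.0 in normoxia (log2 ratio -2.22). P4ha2, a prolyl hydroxylase of collagen, had 40.2 units after cyclic hypoxia, against 140 after chronic hypoxia and 24.0 in normoxia (log2 ratio -1.80). Plekha2, a phosphoinositide-binding adaptor, had 30.6, against 139 and 44.4 (-2.19), and Ahr, the aryl hydrocarbon receptor, had 46.3, against 112 and 44.8 (-1.28). Others were near normoxia after chronic hypoxia and below it after cyclic hypoxia. Pik3c2a, a class II phosphoinositide kinase, had 31.8 units after cyclic hypoxia, against 91.8 after chronic hypoxia and 83.2 in normoxia (-1.53), and Atm, the DNA damage kinase, had 32.8, against 78.7 and 90.1 (-1.26).

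Among the 7 higher genes, Osgin1, an oxidative stress response gene, had 162 units after cyclic hypoxia, against 60.9 after chronic hypoxia and 48.1 in normoxia (1.41). Tle4, a transcriptional corepressor, had 134, against 49.4 and 70.7 (1.43), and Mbd1, which binds methylated DNA, had 106, against 50 and 68.7 (1.08). Of the 24 lower genes 22 were also below 0 at the later collection and 11 were 2-fold lower there. Of the 7 higher genes 6 were above 0 and 3 were 2-fold higher there. The shares over all genes of the same signal range are not given here, so these counts cannot be read against a background. All 6 arrays, the compared and the later ones included, entered the mean signal that placed genes in that range. P4ha2, Plekha2 and Ahr were under 50 units in every array but the 2 chronic ones, and so reach the range through those. Ak4 also reaches it through the chronic arrays (259 and 208 units), with 55.7 units at most in the others. The shares of this range are thus tied to the difference and cannot be read as a neutral comparison with the normoxia pair.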
